A study of Mus musculus with 2 samples.

Results

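A set of 10 genes that the tumour suppressor p53 switches on were followed in hepatic stellate cells, liver endothelial cells and Kupffer cells of mice with carbon tetrachloride (CCl4) liver injury. The genes were Cdkn1a, Mdm2, Ccng1, Trp53inp1, Sesn1, Sesn2, Bax, Phlda3, Eda2r and Gdf15, chosen by name among the 31054 genes of the count tables. These genes, and the other lists below, were chosen with earlier results of these data known. Single-cell RNA sequencing had been done on 2 libraries, 1 from p16-LRTD mice and 1 from p16-Alb-LRTD mice. Both carried p16-CreERT2, in which the p16 promoter drives a tamoxifen-dependent Cre, together with a reporter at the Rosa26 locus (R26-CAG-LSL-RSR-tdTomato-2A-DTR). The reporter is designed to give tdTomato and the diphtheria toxin receptor only after both Cre and Dre have acted. The p16-Alb-LRTD mice also carried Alb-DreERT2, a Dre driven by the albumin promoter of hepatocytes, so that by design only in them could hepatocytes with high p16 be removed by the toxin. The paper saw very mild fibrosis in zones 1 and 2 of only the mice with Alb-DreERT2 and the reporter. It speculates that the toxin receptor was expressed there through a leaky stop cassette. Effects of such a leak cannot be told apart from those of the intended removal here. All mice were male on a C57BL/6 background, and both groups had received CCl4, tamoxifen and diphtheria toxin, so no untreated liver was compared. The study asked what the loss of these hepatocytes does to stellate cells. Hepatocytes were not the cells isolated here, since the cells came from a pronase and collagenase digest followed by a Nycodenz gradient. The mice behind each library, in number and age, are not given in the sources used here. Because each genotype is a single library, genotypes could not be tested against each other, and every interval below covers counting error only.

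p53 is a DNA-binding protein that is kept scarce by Mdm2, a ubiquitin ligase which p53 itself induces, so that activation of p53 raises its own brake. When DNA damage, oncogene signals or other stress free p53 from Mdm2, it binds response elements and induces genes that stop the cell cycle, limit growth signals and oxidants, or permit cell death. Cdkn1a, which encodes the cyclin-dependent kinase inhibitor p21, is the best known of these and is also a common marker of senescence. Many of the targets answer to other inputs as well, among them glucocorticoids, immediate early factors and the integrated stress response.

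The response element of p53 is made of a pair of 10-base units, here called p53 decamers, and the promoters of the genes were searched for this unit to show where it lies near their start sites. The windows ran from 250 bases before to 50 bases after each start in RefSeq (GRCm38.p6), and 9 of the 10 genes had 1 or more, 12 windows in all. A decamer read on either strand is the same search, because the unit is its own reverse complement. It was present in 8.36% of all 32851 windows and in 5 of the 12 windows of these genes, those of Mdm2, Ccng1, Bax, the upstream start of Cdkn1a and the downstream start of Sesn1. The Cdkn1a window held 2 decamers, 12 bases apart, which began 73 and 51 bases before the start. The search took exact matches only. The 10 bases directly after the second decamer missed the unit in their first base alone and are not marked. A pair no more than 13 bases apart was found in 24 of all windows, and in no other window of these genes. The 100 bases around the Cdkn1a pair lie at chr17:29090869-29090968 on the plus strand of GRCm38, upstream of the first exon, and the single decamers of Mdm2 (chr10:117710925-117710954, minus strand), Ccng1 (chr11:40755452-40755481, minus strand), Sesn1 (chr10:41887256-41887285, plus strand) and Bax (chr7:45467080-45467109, minus strand) are given with 10 bases on each side. Capitals mark the decamers, which are letter matches and not measured binding sites.
Cdkn1a: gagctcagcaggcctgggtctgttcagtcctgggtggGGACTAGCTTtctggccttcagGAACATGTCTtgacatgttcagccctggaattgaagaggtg
Mdm2: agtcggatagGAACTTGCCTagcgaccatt
Ccng1: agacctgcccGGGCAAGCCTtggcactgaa
Sesn1: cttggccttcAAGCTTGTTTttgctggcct
Bax: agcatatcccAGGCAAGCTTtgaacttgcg

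After the limits on mitochondrial share, genes and unique molecular identifiers (UMIs, each counting 1 captured transcript) 9004 p16-LRTD cells and 7416 p16-Alb-LRTD cells remained, with medians of 17177 and 18273 UMIs. Stellate cells were those with at least 15 UMIs of Lrat, Ecm1, Hgf and Reln per 10000, which gave 7852 and 6621 cells. Endothelial cells (at least 8 of Kdr, Stab2 and Ptprb) numbered 430 and 283, and Kupffer cells (at least 8 of Clec4f, Cd5l, Vsig4 and Csf1r) 283 and 178. Cells that met more than 1 rule, 245 and 221, were left out of all classes. Genes outside the rules went with the labels. Dcn, Colec11, Des, Rgs5, Pdgfrb and Colec10 together made 25611 and 28295 CPM (counts per 1000000 UMIs of the class) in stellate cells against 308 to 460 in the other classes. Endothelial genes outside the rule made 450 and 461 CPM in stellate cells, mostly Eng (376 and 410), against 6472 and 5536 in endothelial cells. Kupffer genes outside the rule made 28.8 and 21.9 CPM in stellate cells against 11337 and 13937 in Kupffer cells. The endothelial and Kupffer rule genes were each under 5 CPM in stellate cells, which the class rules themselves favour. The libraries shared 95 barcodes, of which 18 passed the limits in both. Other gene groups differed between the libraries in every class and stand beside all that follows. The summed proliferation list (156 against 36.1 CPM in stellate cells) and the collagens Col1a1, Col1a2 and Col3a1 (8353 against 2852 CPM) were lower in p16-Alb-LRTD, while immediate early and heat shock genes that mark dissociation stress (7661 against 11386 CPM) and glucocorticoid-responsive genes (1976 against 3735 CPM) were higher there.

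In stellate cells 8 of the 9 genes that reached a mean of 5 CPM were higher in the p16-Alb-LRTD library and 1 was lower, and 3 of them (Cdkn1a, Eda2r and Trp53inp1) were at least 1.5-fold higher. Of all 10179 genes at that level 3999 were higher and 6180 lower, with 3.03% higher and 3.05% lower by at least 1.5-fold. The 7 macrophage genes summed to 77.6 and 40.3 CPM in these cells, and without the 11 and 8 cells rich in them Cdkn1a, Trp53inp1 and Eda2r kept ratios of 1.39, 0.87 and 0.92. The median log2 ratio of p16-Alb-LRTD over p16-LRTD was 0.29 for the 9 genes and -0.048 for all genes. Cdkn1a, which encodes p21, differed most. It had 2264 UMIs or 15.9 CPM (95% Poisson interval 15.2 to 16.5) in p16-LRTD against 5177 UMIs or 41.4 CPM (40.3 to 42.5) in p16-Alb-LRTD, a 2.61-fold difference and a log2 ratio of 1.38 (1.31 to 1.45). The intervals did not overlap. Cdkn1a lies at chr17:29090976-29100727 on the plus strand.

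**Figure D1:**
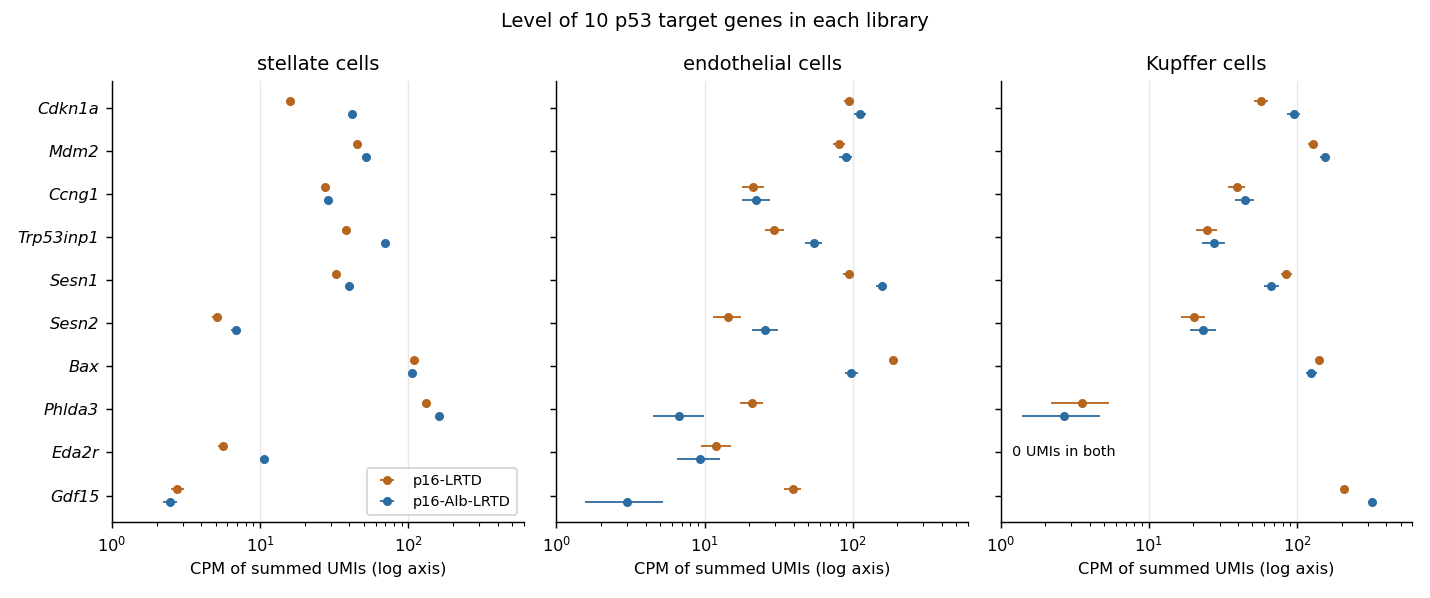
Level of the 10 genes in each library, as CPM of the UMIs summed over the cells of a class (log axis). Points are single libraries, orange for p16-LRTD and blue for p16-Alb-LRTD, and bars are 95% Poisson intervals. Cdkn1a in stellate cells lies at 15.9 against 41.4 CPM, and Gdf15 is near 3 CPM in stellate cells but at 208 and 322 CPM in Kupffer cells.

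Among the feedback and cell cycle genes, Mdm2, the ubiquitin ligase that degrades p53, stood at 44.8 CPM in p16-LRTD against 52.0 in p16-Alb-LRTD (log2 ratio 0.22, 0.17 to 0.27). Ccng1, a cyclin that recruits phosphatase to Mdm2, stood at 27.3 and 28.7 CPM (0.075, 0.0092 to 0.14). Mdm2 was thus slightly higher in p16-Alb-LRTD, and Ccng1 moved to -0.013 when both libraries were given equal shares of cells by glucocorticoid response.

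The genes that act on metabolism and growth signals were also higher, by similar or somewhat larger ratios than Mdm2. Sesn1, a sestrin that restrains the growth kinase mTORC1, was at 32.3 and 39.6 CPM (0.29, 0.24 to 0.35). Sesn2, the sestrin that also answers to the integrated stress response, was at 5.13 and 6.83 CPM (0.41, 0.27 to 0.56). Phlda3, a small protein that competes with AKT for the membrane, was the most frequently detected of the genes in stellate cells, at 132 and 160 CPM (0.28, 0.25 to 0.31). None of these 3 reached 1.5-fold.

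Among the genes tied to cell death, Trp53inp1, which promotes autophagy and the death-inducing modification of p53, was at 37.7 CPM in p16-LRTD against 69.1 in p16-Alb-LRTD, 1.83-fold higher (0.87, 0.82 to 0.92). Eda2r, a receptor of the tumour necrosis factor receptor family, was at 5.59 and 10.6 CPM, 1.89-fold higher (0.92, 0.79 to 1.05). Bax, which opens the mitochondrial outer membrane, was at 109 and 106 CPM (-0.052, -0.085 to -0.018). The death effector itself was thus level between the libraries while the receptor and the autophagy gene were not. Gdf15, a secreted stress hormone, stayed under the 5 CPM minimum in stellate cells, with 2.75 and 2.46 CPM. Its p16-LRTD sum rested on few cells, since 10 cells held 42.5% of its UMIs and a single cell held 91. That cell also carried 1134 UMIs of 7 macrophage genes, and without cells rich in those genes the log2 ratio went from -0.16 to 0.36.

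**Figure D2:**
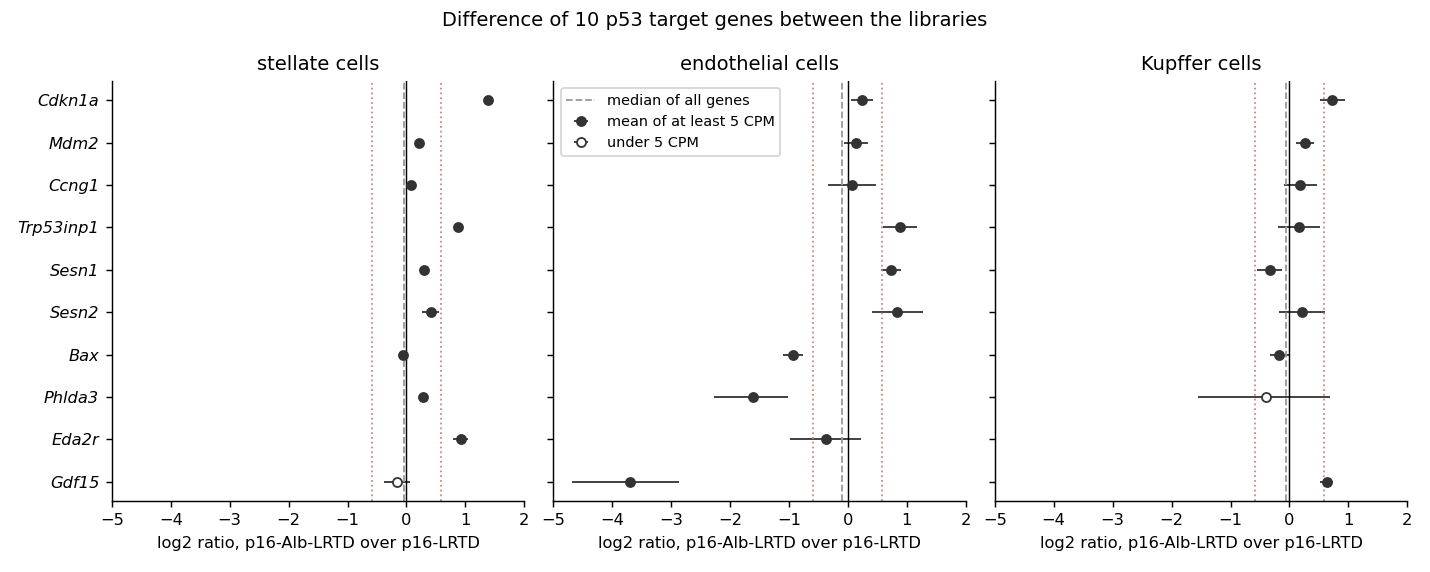
Log2 ratio of p16-Alb-LRTD over p16-LRTD for each gene in stellate, endothelial and Kupffer cells, with 95% exact intervals (counting error only). Open points mark genes under 5 CPM, the dashed line is the median of all genes and the dotted lines are 1.5-fold. In stellate cells Cdkn1a, Trp53inp1 and Eda2r lie beyond 1.5-fold, and Bax, Phlda3 and Gdf15 lie below it only in endothelial cells.

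The Cdkn1a difference was one of cells with any transcript as well as of cells with many. A Cdkn1a UMI was found in 10.8% of p16-LRTD stellate cells and 28.7% of those of p16-Alb-LRTD. After each cell was thinned to 5000 UMIs, which left out 16 and 7 shallower cells, the shares were 4.76% (Clopper-Pearson 95% interval 4.30 to 5.25) and 13.02% (12.2 to 13.9). Cells with 5 or more Cdkn1a UMIs made up 1.67% and 4.24% of stellate cells. The most in 1 cell was 29 and 43 UMIs, and the top 10 cells held 8.75% and 5.27% of all Cdkn1a UMIs. Of thinned cells, Trp53inp1 was detected in 15.8% and 26.3%, Eda2r in 2.23% and 4.94%, and Bax in 41.0% and 40.5%. The mean number of the 10 genes detected in a thinned stellate cell was 1.58 ± 1.12 (SD over cells) in p16-LRTD and 1.93 ± 1.22 in p16-Alb-LRTD, and the share of cells with none of them was 15.7% and 10.2%.

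**Figure D3:**
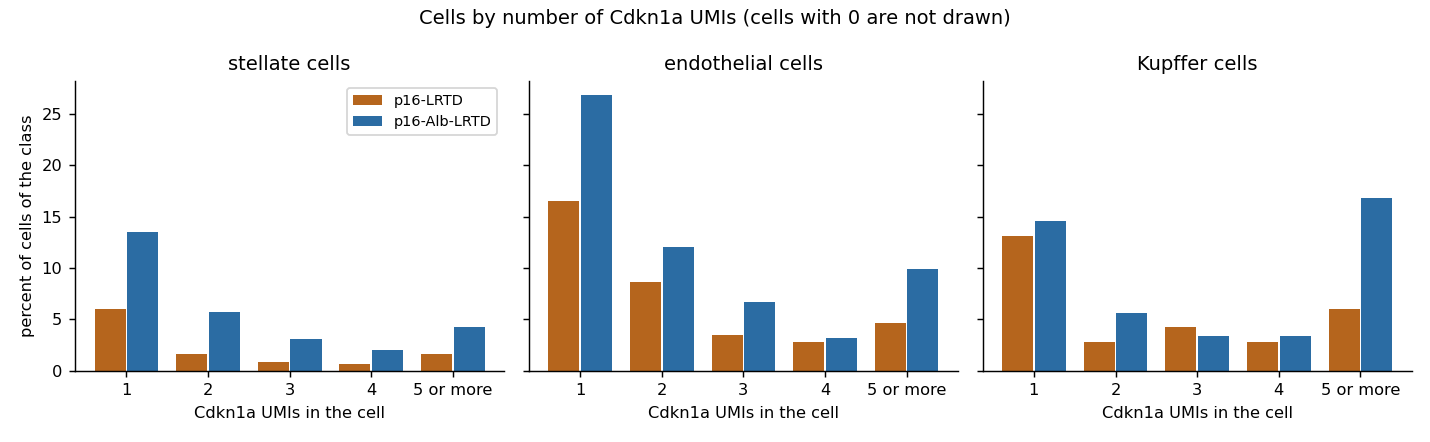
Percent of cells of each class that held 1, 2, 3, 4 or 5 and more Cdkn1a UMIs, without thinning, in the p16-LRTD library (orange) and the p16-Alb-LRTD library (blue). In stellate cells every bar is higher in p16-Alb-LRTD, from 13.5% against 5.998% at 1 UMI to 4.24% against 1.67% at 5 or more, and in Kupffer cells that last bar reads 16.9% against 6.01%.

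Within a library, stellate cells with a Cdkn1a UMI more often held several of the other targets. In thinned cells of p16-LRTD, Eda2r was found in 12.3% (9.17 to 16.1) of the 373 cells with Cdkn1a and in 1.73% (1.45 to 2.05) of the 7463 cells without it. Ccng1 was found in 26.5% and 11.6%, Mdm2 in 33.0% and 18.9%, and Bax in 53.4% and 40.4%. The same contrast in p16-Alb-LRTD was smaller for these genes, with Eda2r in 10.6% (8.60 to 12.8) of 861 cells and 4.10% (3.604 to 4.65) of 5753 cells, Ccng1 in 17.0% and 12.0%, Mdm2 in 27.2% and 21.3%, and Bax in 48.5% and 39.3%. Sesn1 was not more frequent beside Cdkn1a in either library, with 11.3% against 13.4% and 15.3% against 16.6%. Cells share a library here, so these shares describe the libraries and carry no test.

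Since the stress, glucocorticoid and collagen levels of the stellate cells moved with the genotype, Cdkn1a was also read at like levels of each. Pooled terciles of the dissociation stress list gave 12.7 against 29.6 CPM in the low tercile, 17.8 against 35.9 in the middle and 19.1 against 47.9 in the high one. Terciles of the glucocorticoid list gave 13.7 against 37.5, 16.01 against 33.4 and 26.2 against 45.9 CPM, with log2 ratios of 1.45, 1.06 and 0.81. Equal shares of these terciles brought the log2 ratio of Cdkn1a from 1.38 to 1.19 for stress and to 1.06 for glucocorticoid response. Within all 9 combinations of both terciles Cdkn1a was higher in p16-Alb-LRTD, from 0.16 to 1.99, and the interval included 0 in 2 of them. Trp53inp1 was higher in all 9 as well, with 1 interval that included 0, and Eda2r in 8 of 9, with 5 such intervals. Equal shares of each of the 4 kinds of tercile gave 0.70 to 0.97 for Trp53inp1 and 0.66 to 1.38 for Eda2r. Collagen-poor cells did not hold the difference alone. In terciles of Col1a1, Col1a2 and Col3a1, Cdkn1a was at 12.5 against 44.1, 9.23 against 38.3 and 20.7 against 42.5 CPM, and within p16-LRTD it was highest in the collagen-rich cells. The part of dissociation stress and of glucocorticoid response in what remained was not tested, and a library effect cannot be told apart from genotype.

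**Figure D4:**
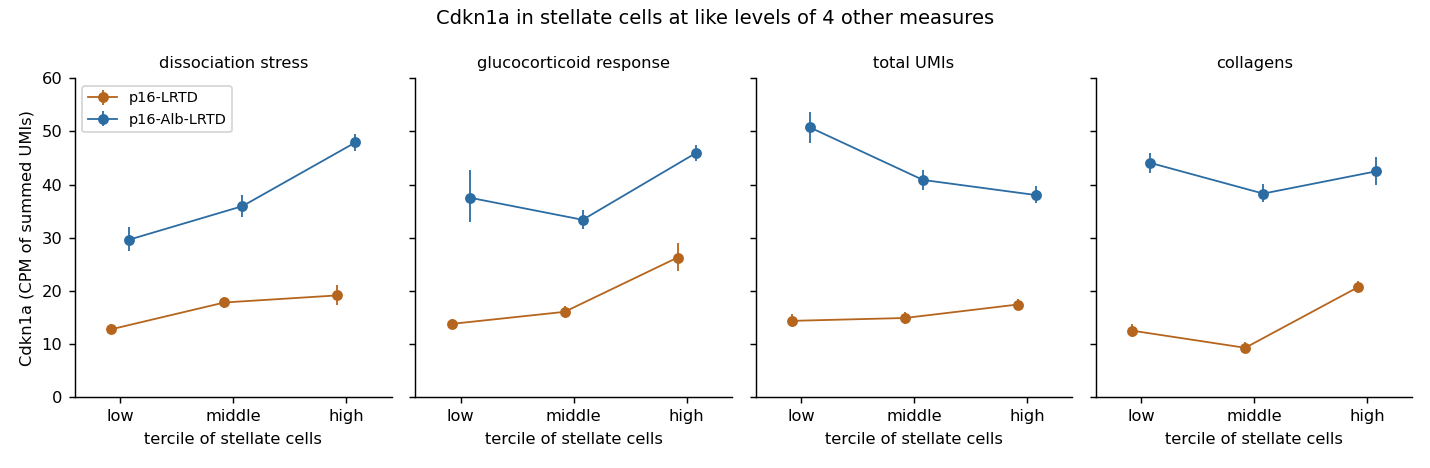
Cdkn1a in stellate cells as CPM of summed UMIs, in pooled terciles of dissociation stress, glucocorticoid response, total UMIs and collagens per cell. Orange is p16-LRTD, blue is p16-Alb-LRTD, bars are 95% Poisson intervals. In all 12 terciles p16-Alb-LRTD is higher, from 26.2 against 45.9 to 9.23 against 38.3 CPM.

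Stellate cells with at least 2 UMIs of the proliferation list numbered 814 and 604. They were not alike in the libraries, since 460 and 457 of them held exactly 2, at the cut, and 156 and 15 held 10 or more. They held more Cdkn1a than the rest in both libraries, with 31.6 CPM against 13.5 in p16-LRTD and 51.5 CPM against 40.2 in p16-Alb-LRTD. The log2 ratio was 0.71 (0.54 to 0.87) among them and 1.57 (1.49 to 1.66) in the other stellate cells, with this difference in make-up left in both values. Trp53inp1 differed by 0.74 and 0.90 in these groups.

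The genes that set p53 activity were compared next in stellate cells. Trp53, which encodes p53 itself, was at 77.7 and 81.3 CPM (0.064, 0.025 to 0.10). Of the 11 regulators at 5 CPM or more, 7 were higher and 4 lower, none reached 1.5-fold, and the median log2 ratio was 0.021. The kinase genes Hipk2 (105 and 104 CPM) and Atm (16.1 and 18.3 CPM) and the ligase genes Cop1 (103 and 106 CPM) and Rchy1 (53.1 and 48.8 CPM) differed by 0.18 or less in size. Cdkn2a, the locus of p16 and of the Mdm2 inhibitor p19Arf, had the lowest ratio of the 11, at 6.12 and 4.63 CPM (-0.40, -0.56 to -0.25). Under 5 CPM, the kinase genes Chek2 (3.36 and 1.92 CPM, -0.81) and Chek1 (1.956 and 1.45 CPM, -0.44), named after their values were seen, were lower still. The reads do not tell the 2 products of Cdkn2a apart, and the p16 promoter also drives the Cre of both genotypes.

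Other p53 targets went both ways. Of 14 arrest and repair genes at 5 CPM or more, 6 were higher and 8 lower, with 2 and 1 past 1.5-fold and a median of -0.053. The 2 were Ddit4, an inhibitor of mTORC1 that is also on the glucocorticoid list (9.92 and 23.7 CPM, 1.26), and Btg2, an antiproliferative gene with an immediate early response (307 and 510 CPM, 0.73). The 1 was Ckap2, a spindle protein of dividing cells (12.3 and 1.80 CPM, -2.78). Aen, an exonuclease gene (18.1 and 24.3 CPM, 0.43), and the kinase gene Plk3 (7.98 and 10.6 CPM, 0.40), both named after their values were seen, were higher than Mdm2 in ratio. The ribosomal protein gene Rps27l (257 and 228 CPM), the repair gene Xpc (65.7 and 79.2 CPM) and Gadd45a (31.2 and 26.7 CPM) stayed within 0.27 in size. Of 6 apoptosis genes 2 were higher and 4 lower with a median of -0.16, and none reached 1.5-fold. Fas, a death receptor, was at 5.54 and 7.71 CPM (0.48) and Apaf1, the core of the apoptosome, at 23.9 and 26.7 CPM (0.16), while Bbc3, which encodes the BH3-only protein PUMA, was at 8.72 and 6.58 CPM (-0.41), Trp53i13 at 25.4 and 18.4 CPM (-0.47), Trp53i11 at 111 and 95.4 CPM and Ei24 at 60.7 and 57.2 CPM. Of the integrated stress response genes beyond Sesn2 and Gdf15, 4 reached 5 CPM and all 4 were higher, led by Ddit3 (18.8 and 31.6 CPM, 0.75) and Ppp1r15a (105 and 157 CPM, 0.59), with Atf4 at 69.8 and 74.6 CPM. All 14 dissociation stress genes and all 10 glucocorticoid genes were higher (6 and 7 past 1.5-fold), in lists that were chosen with earlier results of these data known.

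**Figure D5:**
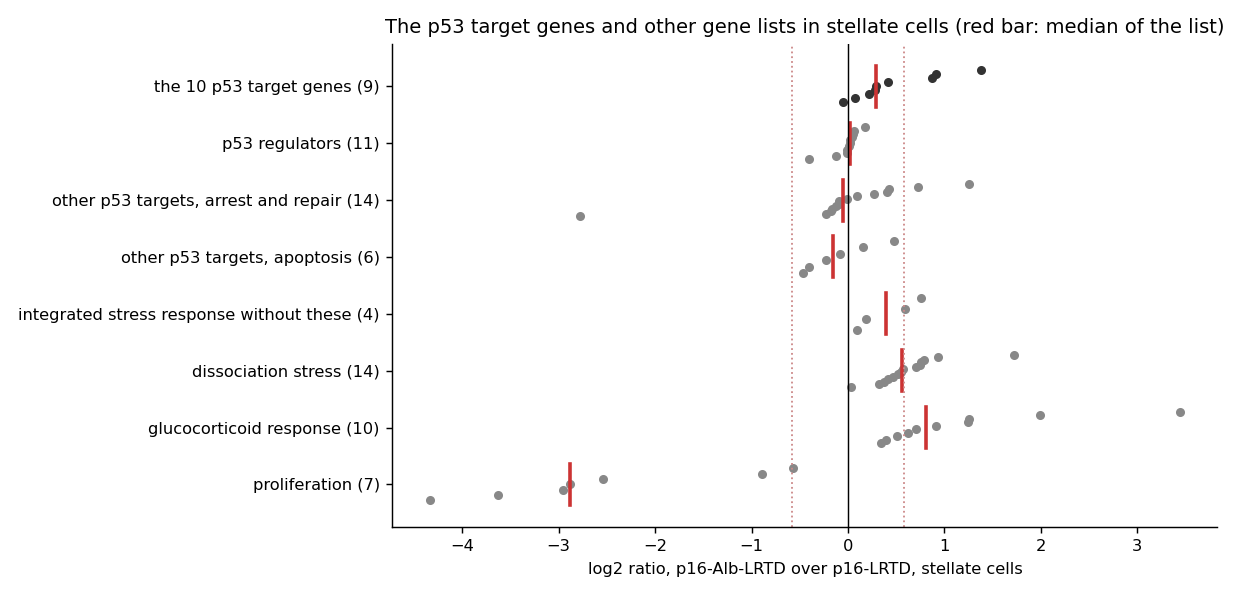
Log2 ratio of p16-Alb-LRTD over p16-LRTD in stellate cells for genes with a mean of at least 5 CPM, by list, with the number of genes in brackets. Each point is a gene, red bars are medians and dotted lines 1.5-fold. The 9 p53 target genes at that level have a median of 0.29, their regulators 0.021, the other arrest and repair targets -0.053 and the apoptosis targets -0.16.

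In endothelial cells the 10 genes split. All reached 5 CPM, 6 were higher and 4 lower in p16-Alb-LRTD, and 3 each lay past 1.5-fold. Of all 9858 genes 3917 were higher and 5941 lower, with 6.44% higher and 13.5% lower by at least 1.5-fold. The median log2 ratio was 0.11 for the 10 genes and -0.10 for all genes, which is a shift of all genes that these ratios include. Beside this, the stress list summed to 3773 and 6371 CPM, the glucocorticoid list to 1727 and 2940, the proliferation list to 103 and 20.1 and the macrophage genes to 348 and 203. The collagens, which are stellate cell products, summed to 634 and 41.7 CPM, and in p16-LRTD 93.7% of the Col1a1 UMIs came from 10 cells. The part of these groups was not tested. The 3 higher genes were Trp53inp1 (29.6 and 54.7 CPM, 0.89, 0.60 to 1.18), Sesn2 (14.3 and 25.6 CPM, 0.84, 0.42 to 1.27) and Sesn1 (94.1 and 156 CPM, 0.73, 0.57 to 0.90). Under other choices of cells and weights their lowest ratios were 0.58, 0.59 and 0.44. Trp53inp1 and Sesn1 thus did not stay past 1.5-fold under every choice. The 3 lower ones were Bax (187 and 97.7 CPM, -0.93, -1.10 to -0.77), Phlda3 (20.8 and 6.78 CPM, -1.62, -2.27 to -1.01) and Gdf15 (39.3 and 3.01 CPM, -3.71, -4.68 to -2.88). Mdm2 (81.1 and 89.4 CPM), Ccng1 (21.3 and 22.3 CPM) and Eda2r (12.0 and 9.29 CPM) had intervals that included 0.

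Several of these endothelial sums rested on single cells of the p16-LRTD library. The top 10 of its 430 endothelial cells held 95.9% of the Gdf15 UMIs, 49.3% of Cdkn1a, 48.4% of Phlda3, 47.3% of Eda2r and 16.9% of Bax. The top 10 of the 283 cells of p16-Alb-LRTD held 83.3%, 24.3%, 59.3%, 73.0% and 14.9% of these. Their sums there were 12, 444, 27, 37 and 389 UMIs. One cell held 128 UMIs of Cdkn1a, 85 of Gdf15, 44 of Bax, 24 of Phlda3, 12 of Mdm2 and 8 of Eda2r. A second held 100 of Gdf15, 25 of Bax, 20 of Cdkn1a and 6 of Eda2r, and another, with 4397 UMIs in all, held 23 of Gdf15 and 13 of Bax. These were the 3 endothelial cells with the most Gdf15, and they carried many of the targets at once, with 4.55 to 7.19 macrophage UMIs per 10000. In p16-Alb-LRTD no endothelial cell held more than 1 Gdf15 UMI or more than 15 of Cdkn1a. Without cells that held over 10 UMIs of the gene in question, the log2 ratio was -0.89 for Gdf15, -0.70 for Bax and -1.33 for Phlda3. For Cdkn1a it was 0.91, against 0.24 (0.056 to 0.42) over all cells at 94.6 and 111 CPM. The share of thinned endothelial cells with a Cdkn1a UMI was 19.4% (15.7 to 23.5) and 37.8% (32.1 to 43.7), against 36.05% and 58.7% unthinned. Cdkn1a counted 206 and 306 UMIs per 1000 UMIs of the 6 stellate genes outside the rule in endothelial cells, but 0.62 and 1.46 in stellate cells. Free RNA was not otherwise measured, so these are shares of cells with a UMI and not of cells that express the gene. In stress terciles the Cdkn1a ratio took both signs (0.11, 1.03 and -1.44), and no direction is read from its sum.

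Bax was detected in 52.4% (47.5 to 57.3) and 42.4% (36.6 to 48.4) of thinned endothelial cells, intervals that overlap slightly. Trp53 was lower there as well, at 135 and 56.5 CPM (-1.26, -1.48 to -1.04), and was found in 71.6% and 47.7% of cells without thinning at median depths of 11781 and 11992 UMIs. Its top 10 cells held 12.2% and 20.4% of the UMIs, and without them it was at 125 and 47.7 CPM. Cdkn2a was at 23.1 and 13.8 CPM (-0.74). Of 12 p53 regulators 4 were higher and 8 lower, of 12 arrest and repair targets also 4 and 8, and of 6 apoptosis targets 3 and 3. Beside these, 3917 of all 9858 endothelial genes were higher and 5941 lower. Phlda3 depended on the choice of cells, since with cells of more than 1 class kept its ratio was 0.17, and Phlda3 was at 132 and 160 CPM in stellate cells. Per 1000 UMIs of the stellate genes outside the rule it counted 45.2 and 18.6 UMIs in endothelial cells and 5.15 and 5.66 in stellate cells.

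In Kupffer cells, the resident macrophages of the liver, 8 of the 10 genes reached 5 CPM, 6 higher and 2 lower in p16-Alb-LRTD, and 2 were at least 1.5-fold higher. Of all 9514 genes 4033 were higher and 5481 lower, with 5.21% higher and 6.83% lower by at least 1.5-fold. The medians were 0.20 for the 8 genes and -0.057 for all genes. Cdkn1a was at 57.2 (51.3 to 63.6) and 94.8 CPM (86.0 to 104), 1.66-fold higher (0.73, 0.52 to 0.94), with thinned shares of 12.6% (8.93 to 17.1) and 21.5% (15.7 to 28.3) and unthinned ones of 29.0% and 43.8%. The value varied with the cells taken, from 0.23 in cells with under 20 UMIs of the hepatocyte list per 10000 to 1.10 without the limits on cells. That list was mostly Apoc1 in this class (1317 and 2047 CPM of 1688 and 2371), while Alb was at 19.5 and 10.95 CPM, so this cut sorted Kupffer cells largely by Apoc1. In terciles of the stress list the Cdkn1a ratio was -0.45 (-0.89 to -0.030), 1.76 and 1.60, so its sign differed in the low tercile. Gdf15 was at 208 and 322 CPM (0.63, 0.52 to 0.74), and 1 p16-Alb-LRTD cell held 384 of its 1440 UMIs. Without the 37 and 21 cells of over 10 Gdf15 UMIs the ratio was -0.037, and its thinned shares were 24.5% and 19.2%. Mdm2 was at 128 and 154 CPM (0.26, 0.11 to 0.41). Sesn1 was lower, at 84.6 and 67.1 CPM (-0.34, -0.55 to -0.13), and Bax stood at 140 and 125 CPM (-0.17). Ccng1 (39.0 and 44.3 CPM), Trp53inp1 (24.6 and 27.5 CPM) and Sesn2 (20.02 and 23.2 CPM) had intervals that included 0. Trp53 was at 63.1 and 56.6 CPM and Cdkn2a at 34.5 and 28.4 CPM. Of 12 regulators 5 were higher and 7 lower, of 14 arrest and repair targets 9 and 5, and of 5 apoptosis targets 4 and 1. The stress list stood at 4510 and 6064 CPM and the glucocorticoid list at 1086 and 1948 CPM beside these values, and the proliferation list at 111 and 59.5 CPM. Genes of macrophage state also differed, chosen here after their values were seen: Gpnmb was at 717 and 109 CPM, Lgals3 at 1677 and 741 CPM and Marco, a scavenger receptor, at 508 and 1461 CPM. The part of these in the Kupffer results was not tested.

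Some of the genes had few or no UMIs in a class. Eda2r gave 0 UMIs in the Kupffer cells of both libraries, which, by a floor of 3 UMIs per library, allows a level of up to 0.505 and 0.671 CPM, against 5.59 and 10.6 CPM in stellate cells. Phlda3 had 21 and 12 UMIs in Kupffer cells. Gdf15 was found in 24.5% and 19.2% of thinned Kupffer cells but in 0.817% and 1.09% of stellate and 2.15% and 2.12% of endothelial cells, a like low share in both libraries.

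The log2 ratios were also compared between the classes, with intervals for counting error. The log2 ratio of Cdkn1a was 1.15 (0.95 to 1.34) higher in stellate than in endothelial cells and 0.65 (0.44 to 0.87) higher than in Kupffer cells. The first rests on the endothelial sum with its few bright cells, and without cells of over 10 Cdkn1a UMIs the ratios were 1.46 in stellate, 0.91 in endothelial and 0.87 in Kupffer cells. The second varied with the choice. It was small at equal shares of glucocorticoid terciles, with 1.06 in stellate and 1.03 in Kupffer cells, and without cell limits, with 1.19 and 1.10. At equal shares by stress the ratios were 1.19 and 0.81, by total UMIs 1.48 and 0.75 and by collagens 1.56 and 0.88. Trp53inp1 differed alike in stellate and endothelial cells (difference -0.015, -0.30 to 0.27) and by 0.71 (0.36 to 1.06) less in Kupffer cells than in stellate cells. For Mdm2 and Ccng1 every interval of a difference between classes included 0. Over the whole preparation of kept cells Cdkn1a was at 23.3 and 47.8 CPM (1.04, 0.98 to 1.10), and fewer cells of a type and less RNA per cell would not be told apart in such a sum.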

How the data were processed

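Libraries from hepatic stellate cell preparations were made with the 10x Genomics 3' v3.1 kit and sequenced on a NovaSeq X Plus. The deposited values are raw UMI counts per gene and barcode, which the authors made with Cell Ranger 7.0.1 on mm10; the annotation and whether intronic reads were counted are not given in the sources used here. The libraries held 11149 (p16-LRTD) and 8806 (p16-Alb-LRTD) barcodes with 193746596 and 162219167 UMIs. Cells with over 5% mitochondrial UMIs, under 2000 or over 7000 genes or over 50000 UMIs were left out, after the limits of the study. No doublet caller was run, and cells that met more than 1 class rule were dropped.

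Counts were summed per class and library and divided by the total (CPM). A level has an exact Poisson interval, a ratio the exact conditional interval and a share the Clopper-Pearson interval, all at 95% and for counting error only. Differences between classes have a normal interval on the log scale. Genes needed a mean of 5 CPM over both libraries, and 1.5-fold counted as a call. Cells were thinned to 5000 UMIs without replacement (seed 1). Terciles were cut over both libraries, and equal shares give each tercile the same weight. No test between genotypes was run, since there was 1 library of each. The ratio and its interval were run on simulated Poisson counts, the model that the interval itself assumes. That run therefore does not cover the spread between cells or libraries. Python 3.11.15, numpy 2.4.6, scipy 1.17.1 and edgeR 4.0.16 (scaling only, R 4.3.3) were used.

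The genes were given by name, and members and lists were chosen with earlier results of these data known. Beside the 10 genes, Trp53 and Cdkn2a, at most the 3 highest genes of a list and the 2 largest ratios in each direction in stellate cells were named by rule. Aen, Plk3, Chek1, Chek2, Gpnmb, Lgals3, Marco, Apoc1 and Alb were named after their values were seen. The macrophage, collagen and class-check genes were chosen after seeing the data. Rfwd2 was matched as Cop1. Gene positions and promoters came from GENCODE vM21 and RefSeq.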

Additional observations from a re-analysis of the deposited data

Results flagged for a closer look

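Of these genes 3 had log2 ratios of opposite sign in different classes, each with an interval apart from 0. Sesn1 was 0.73 in endothelial cells and -0.34 in Kupffer cells. Phlda3 was 0.28 in stellate cells and -1.62 in endothelial cells, where 10 p16-LRTD cells held 48.4% of its UMIs, and the endothelial ratio was 0.17 with cells of more than 1 class kept. Gdf15 was -3.71 in endothelial cells and 0.63 in Kupffer cells, where 10 cells held 95.9% of the p16-LRTD endothelial UMIs and 72.9% of the p16-Alb-LRTD Kupffer UMIs. The Kupffer ratio of Gdf15 was -0.14 without cells of 2 or more proliferation UMIs and -0.037 without cells of over 10 of its UMIs, so the contrast in sign is not kept under these choices. With 1 library per genotype these differences between classes were not tested.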

How the results depend on the processing

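No paired analysis was possible because a single library stands for either genotype. Of 528 log2 ratios and medians under alternatives 24 took the other sign, 3 of them from a reported ratio past 1.5-fold and 21 from a smaller one. Of all 634 values, counts and shares included, 542 stayed within counting error, or for counts of genes within 1.5-fold of the reported count. Among the 122 values for the main results 90 stayed and 32 moved. The log2 ratio of Cdkn1a in stellate cells stayed in 8 of 17 alternatives and moved in 9, between 1.06 and 1.57. The log2 ratio of Cdkn1a in stellate cells was 1.19 without cell limits, 1.49 as a mean over single cells, 1.54 at 10000 to 30000 UMIs and 1.57 without cells of 2 or more proliferation UMIs. It was 1.19, 1.06, 1.48 and 1.56 with equal shares of terciles by stress, glucocorticoid response, total UMIs and collagens, and 1.46 without cells of over 10 of its UMIs. In endothelial cells it was 0.48 as a mean over cells, 0.43 at the same depths, 0.71 without cells of 2 or more proliferation UMIs, 0.91 without cells of over 10 UMIs, and -0.60, -0.33 and -0.019 with equal shares by stress, glucocorticoid response and collagens. In Kupffer cells it was 1.10 without limits, 0.50 at class thresholds times 0.5, 0.996 as a mean over cells, 0.94 at the same depths, 0.23 with under 20 UMIs of the hepatocyte list per 10000, which in these cells is mostly Apoc1, and 1.03 with equal shares by glucocorticoid response. At 2-fold, 1 gene, Cdkn1a, was past the threshold in stellate cells, and the share of all genes at 2-fold is not given here to set beside it. Phlda3 turned to 0.17 in endothelial cells when cells of more than 1 class were kept, and Gdf15 in Kupffer cells to -0.14 without cells of 2 or more proliferation UMIs and -0.037 without cells of over 10 UMIs. Shares with Cdkn1a depended on depth. Thinned to 3000 UMIs they were 3.50% and 9.17% in stellate cells and 21.2% in endothelial cells of p16-Alb-LRTD, and without thinning 10.8% and 28.7% in stellate, 36.05% and 58.7% in endothelial and 28.98% and 43.8% in Kupffer cells. The alternatives by total UMIs, collagens, hepatocyte or macrophage UMIs and over 10 UMIs were chosen after seeing the data, and the last acts on the measured gene itself at a fixed count, so it removes more from deeper cells. The endothelial and Kupffer values rest on 178 to 430 cells per library, and the cause of the moves was not tested.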

Other observations

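Among kept cells that met no class rule, 194 and 113 in number, Cdkn1a was at 88.2 and 95.3 CPM (log2 ratio 0.11, -0.12 to 0.34). Among the 245 and 221 cells that met more than 1 rule it was at 44.5 and 82.4 CPM (0.89, 0.67 to 1.11). Over all barcodes without limits it was at 28.8 and 53.5 CPM (0.89, 0.84 to 0.94).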
